A study of Mus musculus with 3 samples.

Results

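Adhesion G protein-coupled receptors were described here in hematopoietic stem and progenitor cells (HSPCs) of mouse bone marrow. The family was taken as the gene rows whose symbol begins with Adgr, followed by a subfamily letter (A to G, L or V) and a number, which gave 26 of the 24421 gene rows. The 3 libraries are the control group of a study on the loss of the transcriptional repressor Capicua (Cic), numbered by the replicate number in their titles. The mice were C57BL/6 with the genotype Cic flox/flox and had received tamoxifen, and the labels of these samples give no Cre driver, age or sex. The cells were sorted as lineage-negative cells bearing c-Kit and Sca-1, so each library is a mixture of stem cells and early progenitors. The other mouse group of the series was not analysed here, so no contrast between genotypes is given. Nothing in the labels says that the libraries came from separate animals, and the spread between them may be technical.

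Adhesion G protein-coupled receptors (GPCRs) join a long extracellular region, built of adhesion domains, to the seven-helix body of a GPCR. Most are cut by their own GAIN domain at a site just before the first helix, and the freed stub that stays on the membrane part can act as a tethered agonist when the outer part is pulled away. Several signal through G12 and G13 to the GTPase RhoA, and members serve in cell adhesion, myelination, blood vessel formation and leukocyte behaviour. In blood stem cells the best known member is Adgrg1, also called Gpr56.

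Gene counts summed to between 25097769 and 30718562 per library. Levels are given as CPM, the usual scale on which all gene counts of a library add up to 1e6, and a count of 0 allows from 0.0977 to 0.120 CPM (3 counts), a limit that covers counting error only. Genes of the sorted cells were present in every library. All 11 HSPC markers reached 1 CPM, with Kit at 826 ± 71.0 CPM and the Sca-1 gene Ly6a at 103 ± 9.50 CPM (SD, n = 3 libraries for all values given this way). RNA of a sorted pool cannot tell fewer cells of a type from less RNA per cell, and this holds for every level below.

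The family in HSPCs consisted of a few abundant receptors and many that were rare or undetected. Of the 26 members, 13 had a mean of at least 1 CPM, beside 53.1% of all listed genes. A further 8 members had some counts but lay below 1 CPM, and 5 had no count in any library. The median member lay at 0.985 CPM, against 1.73 CPM over all listed genes. Among the 13 members at 1 CPM or more the median was 45.3 CPM, against 25.9 CPM over all 12965 genes at that level. No member had a mean between 5 and 20 CPM, with 9 members above that gap and 4 between 1 and 5 CPM. The gap holds for means only, since Adgrd1 lay at 14.8 CPM in library 3. The family took up 0.286%, 0.248% and 0.253% of gene counts in libraries 1, 2 and 3 (95% Clopper-Pearson bounds, exact, of 0.284 to 0.288%, 0.246 to 0.250% and 0.251 to 0.255%). Of these family counts, Adgrg1 and Adgrl4 together held 81.1%, 79.4% and 79.97% (intervals 80.8 to 81.3%, 79.1 to 79.7% and 79.7 to 80.2%). All intervals cover counting error only, and amplified reads are not independent molecules.

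**Figure D1:**
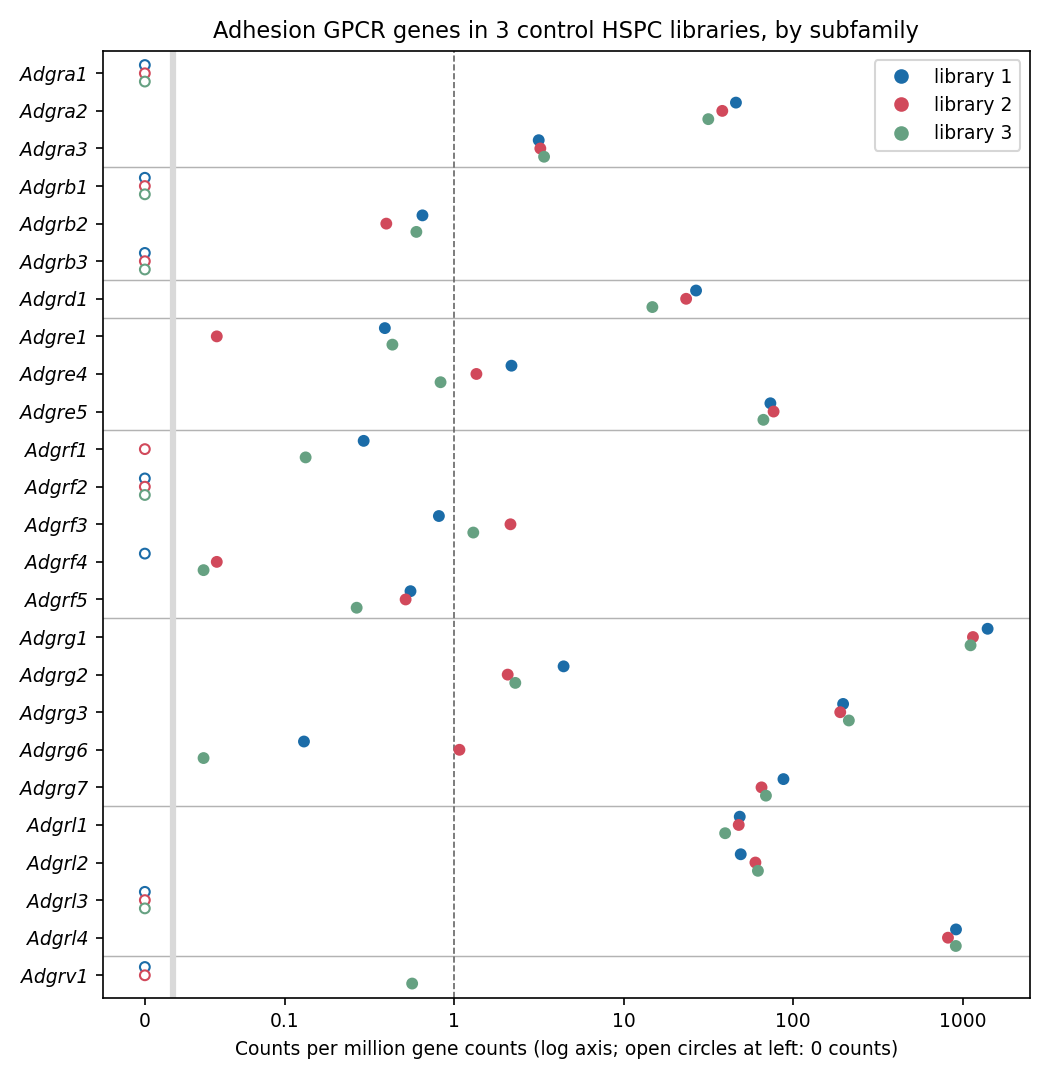
Each row is a member (25 of 26 are drawn), grouped by subfamily letter, and each point is its level in a library in CPM on a log axis; open circles at the left mark libraries with 0 counts and the dashed line marks 1 CPM. Adgrg1 and Adgrl4 stand at the right edge in all 3 libraries, and 5 members have only open circles. The points of the 9 members with a mean above 20 CPM lie close together.

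Subfamily G held the most family counts, 57.1 ± 2.02%, and its 6 members spanned a wide range of levels. Of these, 4 reached 1 CPM. Adgrg1 (ENSMUSG00000031785.16, chromosome 8, 94974751 to 95014217, plus strand, mm10) encodes a receptor that binds collagen III and transglutaminase 2 and marks blood stem cells. It was counted 43117, 28870 and 33436 times, or 1404, 1150 and 1113 CPM in libraries 1, 2 and 3. Library 1 was highest and the others lay close together. The mean was 1222 ± 158 CPM, and per kilobase of annotated exons Adgrg1 ranked 97 among 23376 genes.

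A relative of Adgrg1 follows it on the same strand and was less abundant. Adgrg3 (ENSMUSG00000060470.7, chromosome 8, 95017692 to 95045250) starts 3.47 kb after the end of Adgrg1 and encodes Gpr97, a receptor known from granulocytes. It had 197, 190 and 213 CPM in libraries 1, 2 and 3 (6057, 4760 and 6403 counts, mean 200.01 ± 12.03 CPM). No protein-coding gene is annotated in the gap. Per kilobase of annotated exons, the level of Adgrg1 was 9.07, 7.73 and 6.65 times that of Adgrg3 in libraries 1, 2 and 3. Per kilobase of the longest transcript the ratios were 5.97, 5.09 and 4.38.

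The promoter windows of Adgrg1 and Adgrg3 are shown because the genes are neighbours with unlike levels. Each window is the stretch before a RefSeq start on GRCm38.p6 (the mm10 assembly), plus strand, with CpG dinucleotides in capitals. The Adgrg1 window is chr8:94984149-94984370 and that of Adgrg3 is chr8:95017442-95017691. The Adgrg1 window belongs to the downstream of 2 RefSeq starts and stops where GENCODE M21 annotates an exon.
Adgrg1: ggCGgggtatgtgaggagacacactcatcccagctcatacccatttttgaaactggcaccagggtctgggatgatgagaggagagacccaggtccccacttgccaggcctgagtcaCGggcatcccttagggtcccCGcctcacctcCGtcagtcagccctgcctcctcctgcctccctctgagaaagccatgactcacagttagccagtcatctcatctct
Adgrg3: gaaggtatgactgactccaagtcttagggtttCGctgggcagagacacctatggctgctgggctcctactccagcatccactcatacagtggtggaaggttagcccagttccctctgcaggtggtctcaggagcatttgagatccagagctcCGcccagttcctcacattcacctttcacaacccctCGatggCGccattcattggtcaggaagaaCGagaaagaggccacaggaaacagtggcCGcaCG
They hold 4 and 7 CpG dinucleotides, beside a median of 6 over all 32851 windows of 250 bases. The other Adgrg1 window also holds 4. Both Adgrg1 windows lie inside the annotated span of the gene.

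Other members of subfamily G were split between abundant and rare. Adgrg7 (chromosome 16, 56724609 to 56795855, minus strand), which encodes Gpr128, a receptor known from the intestine, had 2694, 1634 and 2076 counts, or 87.7, 65.1 and 69.1 CPM. The level was highest in library 1, and its mean was 73.98 ± 12.1 CPM. Its neighbour Tfg, transcribed from the same strand, lay at 116 ± 6.42 CPM, and Abi3bp, on the opposite strand beyond Tfg, at 2.84 ± 0.0403 CPM. Adgrg2, known as Gpr64 from the epididymis, had 136, 52 and 69 counts (2.93 ± 1.30 CPM), and library 1 again stood above the others. Adgrg6, or Gpr126, which Schwann cells need for myelination, had 4, 27 and 1 counts, so 27 of its counts came from library 2 and its mean of 0.413 CPM has an SD of 0.576.

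Subfamily L, the latrophilins and their relative Adgrl4, held 37.6 ± 2.33% of family counts. Adgrl4 (ENSMUSG00000039167.11, chromosome 3, 151437887 to 151545086, plus strand) encodes Eltd1, a receptor best known from endothelial cells and vessel growth. It had 28066, 20560 and 27367 counts, or 914, 819 and 911 CPM. The 3 values lay within 1.12-fold of each other, and the mean was 881 ± 53.9 CPM. Per kilobase of annotated exons Adgrl4 ranked 120 among the same genes. Since Adgrl4 is used as an endothelial gene, the endothelial markers were set beside it. Of 10 such markers 7 reached 1 CPM and their summed level ran from 203 to 267 CPM. Most of that sum came from Pecam1 at 107 ± 5.57 CPM, Tie1 at 46.1 ± 12.3 CPM, Tek at 25.2 ± 3.98 CPM, Emcn at 24.8 ± 6.60 CPM and Vwf at 24.2 ± 6.12 CPM. Of the others, Kdr lay at 1.64 ± 0.522 CPM, Stab2 at 1.13 ± 0.0383 CPM, Plvap at 0.573 ± 0.159 CPM and Cldn5 at 0.223 ± 0.187 CPM, and the vascular cadherin gene Cdh5 had 0, 14 and 7 counts. The part of endothelial cells in the Adgrl4 counts was not tested.

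The promoter window of Adgrl4 is shown with that of Adgrb2, a member of the opposite kind in both level and base composition. They are chr3:151437632-151437881 and chr4:129984620-129984869, both on the plus strand, with CpG in capitals as above.
Adgrl4: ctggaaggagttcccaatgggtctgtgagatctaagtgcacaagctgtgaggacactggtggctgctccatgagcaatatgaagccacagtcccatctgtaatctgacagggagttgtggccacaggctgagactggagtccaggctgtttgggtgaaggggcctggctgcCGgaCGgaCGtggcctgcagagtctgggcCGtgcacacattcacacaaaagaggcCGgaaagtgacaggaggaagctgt
Adgrb2: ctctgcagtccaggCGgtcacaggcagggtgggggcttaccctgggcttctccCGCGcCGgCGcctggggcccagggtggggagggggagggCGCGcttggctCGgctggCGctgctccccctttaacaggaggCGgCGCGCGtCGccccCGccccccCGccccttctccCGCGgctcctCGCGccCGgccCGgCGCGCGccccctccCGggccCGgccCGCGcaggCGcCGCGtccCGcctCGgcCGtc
The Adgrl4 window holds 5 CpG and the Adgrb2 window 35, while the genes lay at 881 and 0.55 CPM. The pair was picked for its contrast and shows no rule. Adgrl1 had 21 CpG at 45.3 CPM, and Adgrf4 had 3 CpG at 0.0244 CPM. Over all listed genes with a window, 80.5% of those with at least 10 CpG reached 1 CPM, against 30.2% of the others.

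The latrophilins proper, receptors for teneurins and FLRT proteins, were moderately expressed with an exception. Adgrl1 had 1488, 1199 and 1193 counts, which is 48.4, 47.8 and 39.7 CPM (45.3 ± 4.85 CPM). Adgrl2 had 1508, 1504 and 1862 counts, which is 49.1, 59.9 and 62.0 CPM (57.0 ± 6.93 CPM), and library 1 was the lowest for it. Adgrl3 had no count in any library. On the opposite strand, genes that are not among the counted rows overlap 15.6% of the annotated exon bases of Adgrl1, and reads there could not be told apart.

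Subfamily E contains leukocyte receptors with EGF-like repeats, and Adgre5 was its abundant member. Adgre5 (ENSMUSG00000002885.14, chromosome 8, 83723251 to 83741326, minus strand) encodes CD97, the receptor for CD55. It had 2256, 1925 and 2006 counts, or 73.4, 76.7 and 66.8 CPM (72.3 ± 5.05 CPM). Its exons overlap those of Ddx39 and a microRNA gene over 24.6% of their length, so its count is uncertain. Adgre4, the myeloid receptor gene also called Emr4, had 67, 34 and 25 counts (1.46 ± 0.680 CPM). Adgre1, which encodes the macrophage antigen F4/80, had 12, 1 and 13 counts (0.288 ± 0.216 CPM). Markers of the cells that carry these receptors were set beside them. Of 9 macrophage and monocyte markers 7 reached 1 CPM, with a summed level of 65.9 to 87.4 CPM. The highest were Cd68 at 28.4 ± 7.03 CPM and Csf1r at 26.3 ± 9.98 CPM, and the complement genes C1qb, C1qc and C1qa lay at 1.67 ± 0.683, 1.13 ± 0.616 and 0.114 ± 0.0708 CPM. Of 8 eosinophil markers 4 reached 1 CPM, with a summed level of 23.2 to 43.9 CPM. The part of such cells in the Adgre1 and Adgre4 counts was not tested.

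Subfamilies A and D each had a member above 20 CPM. Adgra2 (chromosome 8, 27085583 to 27123436, plus strand), or Gpr124, acts with Reck in Wnt7 signalling of brain vessels. It had 1413, 959 and 949 counts, or 46.0, 38.2 and 31.6 CPM (38.6 ± 7.21 CPM). Adgra3 had 97, 81 and 102 counts, or 3.16, 3.23 and 3.40 CPM, the smallest spread of the members at 1 CPM or more (CV 3.76%). Counting error is large at such counts, so this CV does not show that Adgra3 is steadier than other members. Adgra1 had no count. Adgrd1 (chromosome 5, 129096750 to 129204599, plus strand), or Gpr133, had 822, 587 and 444 counts, which is 26.8, 23.4 and 14.8 CPM. The level of Adgrd1 in library 3 lay below the others, and its mean was 21.6 ± 6.18 CPM.

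Subfamilies B, F and V were low, with no member above 1.42 CPM. In subfamily B, the brain angiogenesis inhibitor genes, Adgrb1 and Adgrb3 had no count and Adgrb2 had 20, 10 and 18 counts (0.550 ± 0.133 CPM). In subfamily F only Adgrf3 passed 1 CPM, with 25, 54 and 39 counts (1.42 ± 0.677 CPM). Adgrf5, or Gpr116, which controls lung surfactant, had 17, 13 and 8 counts, Adgrf1 had 9, 0 and 4, Adgrf4 had 0, 1 and 1, and Adgrf2 had none. These 4 F genes lie on chromosome 17, where Adgrf4 is 16.7 kb from Adgrf2 and Adgrf1 is 35.7 kb from Adgrf5. Adgrv1, the very large receptor gene of hearing and vision, had 0, 0 and 17 counts, all from library 3.

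Levels of different genes can be compared only per length, and per kilobase of annotated exons the order changed little at the top. Adgrg1 stood first at 225 ± 29.1 CPM per kb, with a range from 205 to 259, and Adgrl4 second at 192 ± 11.7 CPM per kb, with a range from 179 to 199. These ranges did not overlap, with 205 against 199 at the boundary. Adgrg3 at 29.0 ± 1.74 and Adgrg7 at 27.4 ± 4.47 CPM per kb overlapped in range and are not ordered. Adgre5 followed at 19.2 ± 1.34, Adgra2 at 6.68 ± 1.25, Adgrl1 at 5.28 ± 0.565, Adgrl2 at 4.02 ± 0.488 and Adgrd1 at 2.60 ± 0.742 CPM per kb. In this group the ranges of Adgra2 and Adgrl1 overlapped. The last 4, Adgrg2, Adgrf3, Adgre4 and Adgra3, lay between 0.402 and 0.556 CPM per kb and overlapped each with the next. Per kilobase of the longest transcript instead, Adgrg3 lay at 65.9 and Adgrl2 at 9.42 CPM per kb, the latter then above Adgra2 and Adgrl1, while the first 5 places were the same. In all, 7 of the 13 members changed place, among them Adgra3, which rose from place 13 to place 10 at 0.728 CPM per kb.

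**Figure D2:**
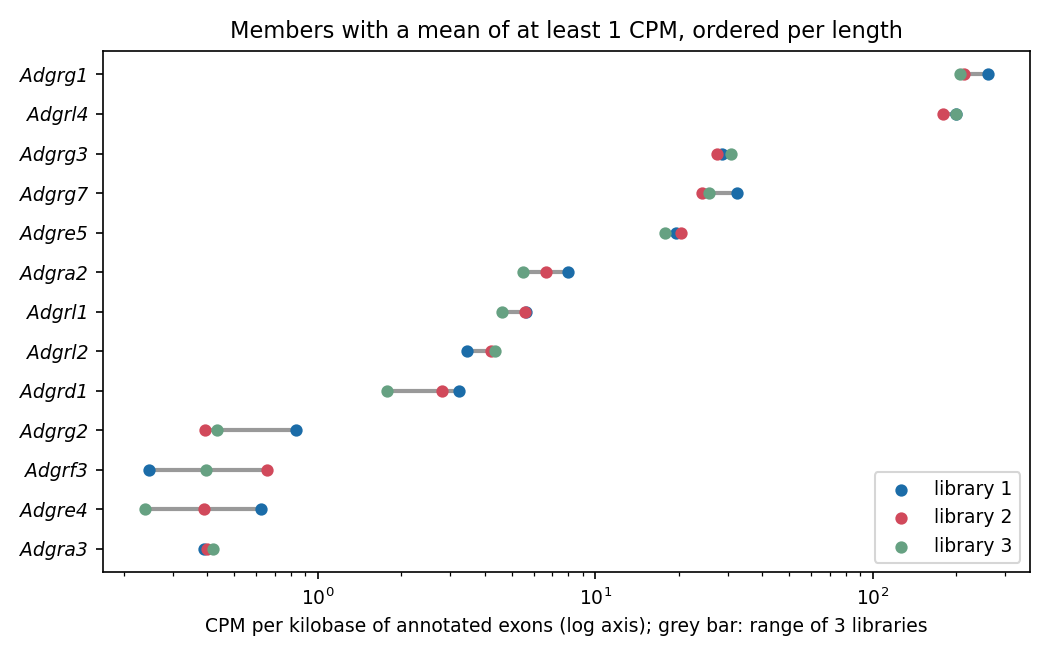
The 13 members averaging 1 CPM or more are ordered by CPM per kilobase of annotated exons (log axis), with a point for each library and a grey bar over their range. Adgrg1 and Adgrl4 stand apart from all others, and the bars of the lowest 4 overlap.

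The libraries agreed on which receptors were abundant, and differed in detail. A chi-square test of each gene's counts between the 3 libraries, adjusted over all 12965 genes at 1 CPM or more (Benjamini-Hochberg), called 12 of the 13 members, beside 82.6% of all genes tested. The exception was Adgra3 (adjusted p = 0.878). Such a test sets the bar at read-counting noise, which is low for amplified reads. Against the spread of genes of like abundance, edgeR's quasi-likelihood variability test called 0 of the 13 members, beside 0.00771% of all genes. None of the 13 had an unadjusted p under 0.05 either, beside 588 of all 12965 genes. DESeq2 marked none as a dispersion outlier, beside 30 of all genes. With any 1 library left out, 1 of the 13 had an unadjusted p under 0.05 in the edgeR test. Over all genes this held for 730 of 12963, 661 of 12941 and 727 of 12956 without libraries 1, 2 and 3. After adjustment 0 of the 13 passed, beside 33, 9 and 9 of all genes. Between the highest and lowest library the members differed by a median of 1.26-fold, against 1.29-fold over all genes with counts in every library. Of the 13 members, 3 (Adgre4, Adgrf3 and Adgrg2, all under 3 CPM) differed by at least 2-fold. The share over all genes was 11.7%, which also includes genes with a library at 0.

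The direction of these differences depended on the scale. In CPM, 8 of 13 members were highest in library 1, beside 31.9% of all genes. The 8 included Adgrg1, with 1.26-fold between its highest and lowest library, Adgrd1, with 1.81-fold, and Adgra2, with 1.46-fold. They also included near-ties, namely Adgrl4 at 914 and 911 CPM in libraries 1 and 3, and Adgrl1 at 48.4 and 47.8 CPM in libraries 1 and 2. The HSPC markers summed to 3858, 3534 and 3334 CPM in libraries 1, 2 and 3, and the neutrophil and granule markers to 977, 1877 and 2998 CPM. The granule list moved both ways, since 5 of its 10 genes were highest in library 3 and 5 in library 1. Most of its sum was Mpo, at 683, 1544 and 2403 CPM, and Elane had 24.7, 112 and 240 CPM, whereas Ngp had 80.1, 15.4 and 34.1 CPM and S100a9 had 35.2, 9.76 and 24.5 CPM. The part of these shifts in the receptor values was not tested. Levels were also taken per read of the ERCC entries, synthetic spike-in RNAs with rows of their own that the labels do not mention. On this scale 1 of the 13 members, Adgre4, was highest in library 1, beside 1.16% of all genes tested. Another 11 were highest in library 3, beside 94.5% of all genes tested.

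**Figure D3:**
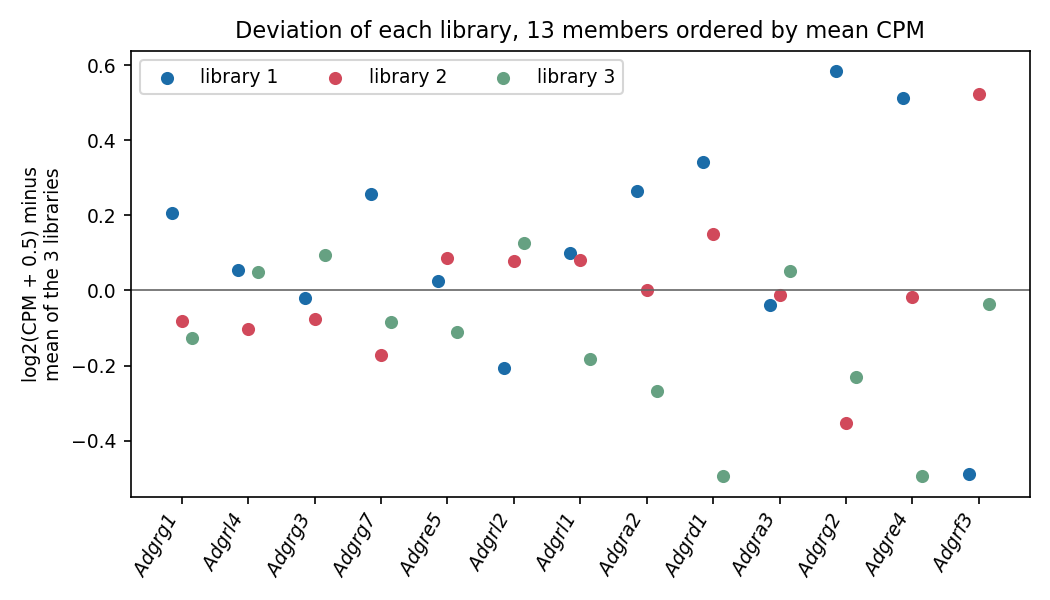
For each of the 13 members at 1 CPM or more, ordered by mean CPM, points give log2(CPM + 0.5) in each library minus the mean of the 3 libraries. Library 1 is the highest for Adgrg1, Adgrl4, Adgrg7, Adgrl1, Adgra2, Adgrd1, Adgrg2 and Adgre4, and the lowest for Adgrl2, Adgra3 and Adgrf3. For Adgrl4 and Adgrl1 its lead over the next library is slight.

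**Figure D4:**
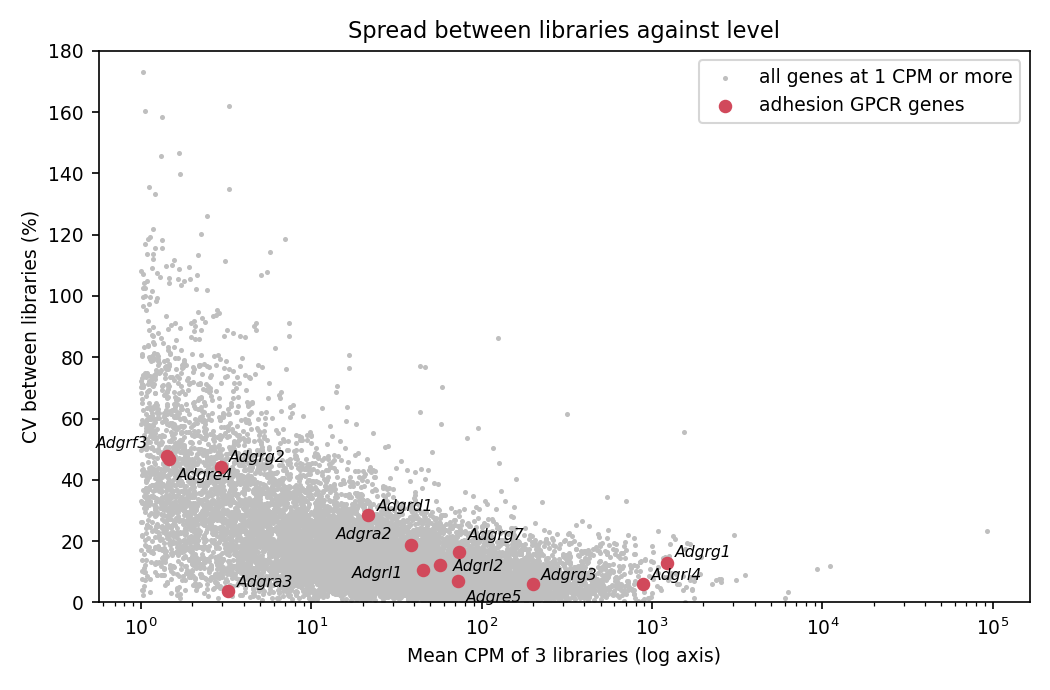
The coefficient of variation between the 3 libraries is plotted against mean CPM (log axis) for all 12965 genes at 1 CPM or more (grey) and for the 13 members (red). The members lie inside the grey cloud at every level, with a median of 12.9% against 13.2% over all genes.

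Among members with a promoter window, the most abundant had fewer than 10 CpG, where the median over all windows was 6. A RefSeq window of 250 bases before a start was matched for 19 of the 26 members (23 windows). Of the 7 members without a window, 4 reached 1 CPM, namely Adgre5 at 72.3 CPM, Adgra2 at 38.6 CPM, Adgrd1 at 21.6 CPM and Adgrf3 at 1.42 CPM. Of 9 members with at least 10 CpG in a window, 3 reached 1 CPM and 0 reached 50 CPM. Of 10 members with fewer CpG in every window, 6 reached 1 CPM and 5 reached 50 CPM, namely Adgrg1, Adgrl4, Adgrg3, Adgrg7 and Adgrl2. The windows of Adgrg1 and Adgrl2 lie inside the annotated spans of these genes, so sequence before their outermost annotated starts was not counted. For Adgrl2 the window is chr3:148954636-148954885, in a minus-strand gene annotated from 148815583 to 148990555. At least a window each of Adgrf5, Adgrg6 and Adgrl3 is internal as well. Over all listed genes with a window, 9177 had at least 10 CpG in a window. Of these, 80.5% reached 1 CPM and 31.3% reached 50 CPM, against 30.2% and 6.34% of the 8047 others. The numbers of members are small, and the relation was not tested.

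**Figure D5:**
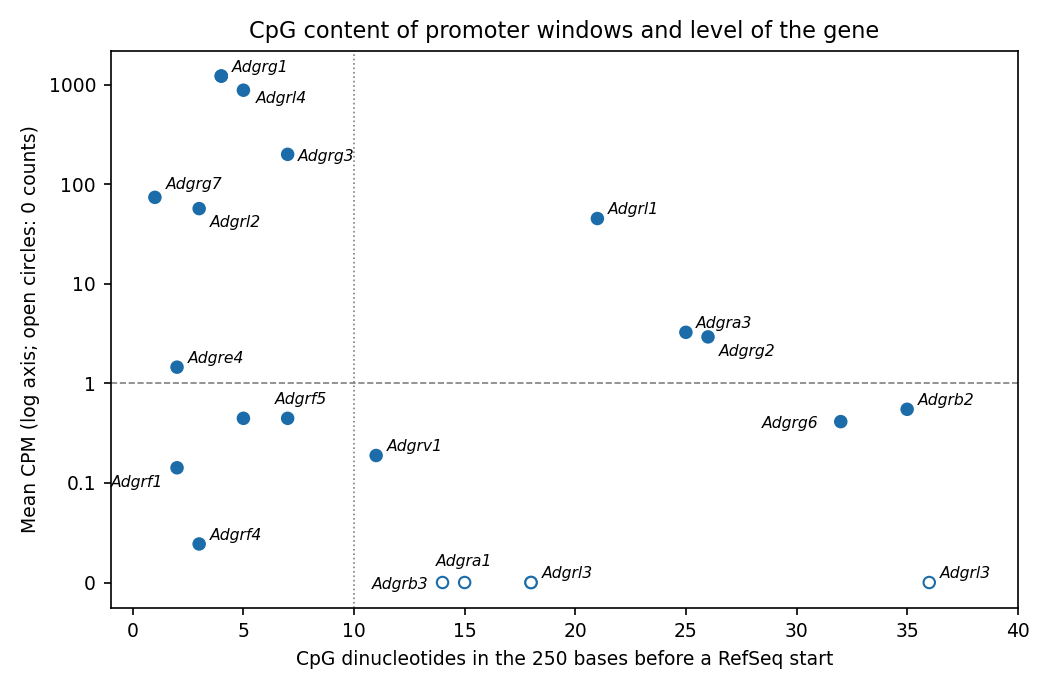
Each point is a RefSeq promoter window of a member (22 of 23 windows are drawn), with the number of CpG dinucleotides in its 250 bases on the horizontal axis and the gene's mean CPM on the vertical log axis; open circles are genes without counts, the dashed line is 1 CPM and the dotted line 10 CpG. The 5 drawn members above 50 CPM all lie left of the dotted line, and Adgrl1 at 45.3 CPM is the highest to its right. Adgre5, also above 50 CPM, has no window and is not drawn.

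The same windows were searched on both strands for short motifs. An ETS motif (AGGAAG or CGGAAG) was found in 9 of the 23 member windows (39.1%), beside 39.2% of all 32851 windows searched. Adgrg7 held 3 such matches, and Adgrl4 held 1 that begins 10 bases before the start. A GATA motif (AGATAA) was found in 2 member windows, those of Adgrg7 and Adgrf4, beside 9.99% of all windows. A RUNX motif (TGTGGT) was found in 3 of the 23 member windows, beside 14.0% of all windows, and a TATA motif (TATAAA) in 2, beside 12.4%. The octamers TGAATGAA and TGAATGGA that Capicua binds were found for Adgrb3 only, beside 1.08% and 1.01% of windows. A match in these letters does not show binding, and the absence of a match says nothing about sites elsewhere.

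The Celsr genes, which form subfamily C of the same receptor family under an older name, were all expressed at low to moderate levels. These receptors organise planar cell polarity. Celsr1 had 573, 703 and 840 counts (24.9 ± 5.39 CPM), Celsr2 had 228, 201 and 174 (7.07 ± 1.15 CPM) and Celsr3 had 16, 73 and 93 (2.18 ± 1.44 CPM). Library 1 was the lowest for Celsr1 and Celsr3.

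Genes of reported binding partners were expressed in part, and the list is not divided between abundant and rare receptors. Of 19 partners reported for subfamilies E and G and some others, 14 reached 1 CPM, with a list median of 21.4 CPM. Those with the most reads were the prion protein gene Prnp at 221 ± 37.7 CPM, the tetraspanin gene Cd81 at 189 ± 18.3 CPM, the integrin chain gene Itgb1 at 185 ± 26.0 CPM and Cd63 at 67.8 ± 4.39 CPM. Col3a1, the collagen bound by the Adgrg1 product, and Sftpd had no count in any library. The other Adgrg1 ligand gene Tgm2 lay at 40.4 ± 7.61 CPM, and Cd55, the ligand of the Adgre5 product, at 21.4 ± 2.32 CPM. Both fall outside the rule for naming and were taken as the known ligands after their values were seen.

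Partners of the latrophilins and their relatives were mostly rare. Of 18 genes listed for subfamilies L, B and A, 6 reached 1 CPM, with a median of 0.313 CPM, and 6 had no count, among them the teneurin genes Tenm1 and Tenm2 and the Wnt genes Wnt7a and Wnt7b. Among those that reached 1 CPM were Reck at 11.6 ± 2.41 CPM, Rtn4r at 3.24 ± 0.367 CPM and Flrt1 at 3.05 ± 1.21 CPM.

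The signalling machinery downstream of the receptors was expressed almost throughout. Of 16 G protein alpha subunit genes 14 reached 1 CPM (median 19.1 CPM), with Gnas at 601 ± 21.6 CPM, Gnai2 at 304 ± 14.7 CPM, Gna13 at 245 ± 7.59 CPM and Gnai3 at 209 ± 14.8 CPM, and the photoreceptor subunit gene Gnat1 had no count. All 11 genes of the arm from G12 and G13 to RhoA reached 1 CPM (median 92.0 CPM). They included the RhoA kinase genes Rock2 at 361 ± 29.3 CPM and Rock1 at 197 ± 10.4 CPM, Rhoa itself at 305 ± 10.2 CPM and the exchange factor gene Arhgef1 at 175 ± 21.9 CPM, and the lowest was Rhoc at 1.75 ± 0.532 CPM. All 8 listed arrestin and receptor kinase genes with an entry reached 1 CPM (median 47.6 CPM). Arrb1 lay at 131 ± 6.61 CPM, the receptor kinase genes Adrbk1 and Adrbk2 (older symbols of Grk2 and Grk3) at 114 ± 11.2 and 64.9 ± 1.46 CPM, Arrb2 at 49.7 ± 0.483 CPM and Grk4 at 9.02 ± 1.45 CPM. None of the genes in these lists passed edgeR's variability test after adjustment over all genes.

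Markers of other cells that a sort for HSPCs could hold were low or uneven. Of 10 T and NK cell markers with an entry 2 reached 1 CPM, with a summed level of 5.11 to 8.42 CPM, and Gzma had no count. Of 8 stromal markers 3 reached 1 CPM, with a sum of 48.1 to 60.5 CPM, with Pdgfrb at 41.4 ± 5.42, Lepr at 6.85 ± 0.454 and Col1a2 at 5.62 ± 2.81 CPM, and Col3a1, Adipoq and Dcn had no count. Of 9 erythroid markers 5 reached 1 CPM, with a sum of 26.0 to 29.9 CPM, with Slc4a1 at 405, 36 and 74 counts and Alas2 at 11.3 ± 3.14 CPM. The 4 globin genes had no count, but from 53.2% to 89.3% of their 50-base words occur in another gene, so these zeros are uncertain. Of 9 megakaryocyte and platelet markers 7 reached 1 CPM, with a sum of 332 to 419 CPM.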

How the data were processed

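RNA of sorted HSPCs from 3 control libraries was analysed. Per the labels' protocols, complementary DNA was amplified with the NuGEN Ovation system and sequenced on an Illumina instrument. The authors deposited raw counts per gene symbol, 1 file per library. Per the submitters' processing notes, the tools were TopHat2 2.0.9, HTSeq and DESeq2, with build mm10. For the gene model and for strandedness, the setting is not given in the sources used here. Gene rows held 38.2%, 34.1% and 40.0% of all entries in libraries 1, 2 and 3, and 92 ERCC rows and 5 category rows were left out of library sizes.

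Counts were divided by the gene-row total (CPM). Lengths came from GENCODE M21 exon unions, and promoter windows from RefSeq (GRCm38.p6). Genes averaging 1 CPM or more were tested with a chi-square test (2 degrees of freedom) and with edgeR 4.0.16 quasi-likelihood dispersions, as residual deviance of an intercept-only fit over the trend (TMM, robust). DESeq2 1.42.0 gave an alternative. The tests were also run on simulated data, and the outcome is not given here. Values of 1 member and 3 list genes are not reported here, although they enter the counts, sums and medians. All other members are described, and up to the 4 highest genes and the lowest of each pathway list were named; other list genes were named after their values were seen. The members and lists were chosen with earlier results of these data known. Other scalings, filters and leaving out each library were tried.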

Additional observations from a re-analysis of the deposited data

Results flagged for a closer look

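Reads of the ERCC spike-in entries were not part of the levels above, and they were present in every library. Library 1 held 455900 such reads, library 2 held 239355 and library 3 held 174913, or 1.48%, 0.954% and 0.582% of gene counts. Of the 92 entries 74, 75 and 73 had a count. Per ERCC read, Adgrg1 had 0.0946, 0.121 and 0.191 counts and Adgrl4 had 0.0616, 0.0859 and 0.156 counts in libraries 1, 2 and 3, so library 3 was the highest for both. The amount of spike-in per cell or per RNA is not given in the sources used here.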

How the results depend on the processing

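The number of members averaging 1 CPM or more was 13 under TMM, under DESeq2 size factors, without Rn45s and ribosomal protein genes, and without each library. It was 11 when 1 CPM was asked of every library and 14 at 0.5 CPM. Leaving out a library gave 8 to 10 members called by the chi-square test, with 8 without library 1, beside 51.4%, 67.3% and 64.4% of all genes without libraries 1, 2 and 3. The count of edgeR variability calls was 0 under every alternative run, beside 0.00771% to 0.255% of all genes. Without each library and with no filter, 1 member had an unadjusted p under 0.05. With no filter 897 of 17328 genes had one, and the numbers without each library are given above. The number of members highest in library 1 was 8, 9 under TMM and under DESeq2 size factors, and 1 per ERCC spike-in read, a setting chosen after seeing the data. Over all genes tested this share was 31.9% in CPM, 38.3% under TMM, 38.9% under DESeq2 size factors and 1.16% per ERCC read. The cause was not tested. Without Rn45s and ribosomal protein genes, levels were 1.16 to 1.17 times the main ones. Leaving out a library moved levels by 0.743 to 1.21 times. No paired analysis was possible because there is 1 group. Members with few counts in a library are limited by depth.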
